A study of Homo sapiens with 3 samples.

Results

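The histone genes H1 to H4 were examined in RNA sequencing of Cal-33, an established line of squamous carcinoma cells from a human tongue. A gene was taken as a member if its current symbol names a linker histone H1 gene or a clustered H2A, H2B, H3 or H4 gene. The rule used symbols and no measured value, and it took 70 of the 28890 genes in the deposited table. Values are given for 69 of them, 9 H1, 16 H2A, 17 H2B, 13 H3 and 14 H4 genes, and all counts and sums below are over these 69. Cells whose genotype is labelled WT were given a control siRNA (siControl), a p53 siRNA (sip53) or a BACH1 siRNA (siBACH1) and collected 72 h later. Each group was 1 library, so there was no replicate check, and every difference describes these 3 libraries with no test, error or p-value. Values are TPM, which scales abundance per unit of transcript length to a fixed total of 1000000 in each library.

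H2A, H2B, H3 and H4 form the protein core around which DNA is wound, and H1 binds the DNA that links the cores. Most of these genes lie in clusters, have no introns and are transcribed mainly in S phase. Their mRNAs usually end in a short stem-loop, bound by the protein SLBP, and not in a poly(A) tail. H1-10 lies outside the clusters, and its mRNA carries a poly(A) tail. In bulk RNA, fewer cells of a kind (cells in S phase, for example) and less RNA per cell cannot be told apart.

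The sequences below are the stem-loops of 6 members with a few bases on either side, shown because the members differ in whether the annotated transcript ends at the stem-loop or runs on past it. H2BC12 and H1-2, the highest cluster genes, are annotated in GENCODE 29 as coding sequence only and are not shown. The stem-loops were read from GENCODE 29 transcripts (GRCh38), and capitals mark the stem-loop found as GGNNCTTTTNAGNGCC, 16 bases searched on the transcript strand.
H4C11, chr6:27824452-27824480, plus strand: aataaaaGGCCCTTTTCAGGGCCacccta
H2AC6, chr6:26124662-26124691, plus strand: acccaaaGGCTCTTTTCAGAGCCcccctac
H2BC5, chr6:26158580-26158609, plus strand: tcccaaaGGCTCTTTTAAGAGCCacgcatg
H2BC21, chr1:149886181-149886210, minus strand: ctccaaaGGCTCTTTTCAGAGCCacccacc
H3C10, chr6:27810509-27810538, plus strand: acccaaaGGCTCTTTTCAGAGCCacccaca
H2AC18, chr1:149842216-149842245, minus strand: ctcaaaaGGCTCTTTTCAGAGCCacccacg
The annotated H4C11 transcript ended 6 bases after the stem-loop, and an H2BC5 transcript of 496 bases ended 39 bases after it. A longer H2BC5 transcript, of 789 bases, held no match to the stem-loop. Transcripts of H2AC6, H3C10 and H2BC21 ran on for 1128, 769 and 1729 bases past the stem-loop. The motif was found in transcripts of 27 members and of 18 genes that are no members, together 0.0766% of the 58721 annotated genes. The form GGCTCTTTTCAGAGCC occurred in 15 members, of the H2A, H2B and H3 families. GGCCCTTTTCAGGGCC occurred in 4 members and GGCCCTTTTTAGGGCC in 3, all of them H4 genes.

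As a check of the targeted gene, BACH1, a transcriptional repressor, was at 15.2 TPM in siControl, 19.6 TPM in sip53 and 4.30 TPM in siBACH1. All 10 squamous markers reached 1 TPM in every library, and their sum was 11765 TPM in siControl, 10829 TPM in sip53 and 7133 TPM in siBACH1. In siBACH1, 5 of the 10 were at least 1.5-fold lower than in siControl. Among all genes of at least 1 TPM in 1 or both libraries, 3.69% were. Whether the lower markers bear on the histone values was not tested. Fibroblast markers summed to between 4.18 and 5.05 TPM and immune markers to between 1.79 and 2.80 TPM, with MS4A1 at 0 in every library. Endothelial markers summed to between 17.9 and 20.3 TPM, of which CDH5 gave 16.0 to 18.7 TPM, and KDR was at 0 in every library. Relative to siControl, the median TPM ratio over genes was 0.949 in sip53 and 0.943 in siBACH1.

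Most histone genes were under 1 TPM, as were most genes of the whole table. At least 1 TPM was reached by 24 of the 69 members in siControl, 20 in sip53 and 22 in siBACH1. Of all 28890 genes, 12198, 12113 and 12129 reached it in the same order. Over the 3 libraries, 30 members reached 1 TPM at least once, 16 reached it in all 3 and 14 in only some. Of the other 39, 17 were listed at 0 in every library and 22 were above 0 but under 1 TPM throughout. At least 5 TPM was reached by 6 members in each library. The median over the 69 members was 0.359 TPM in siControl, 0.430 TPM in sip53 and 0.355 TPM in siBACH1. Together they held 305 TPM in siControl, 273 TPM in sip53 and 250.4 TPM in siBACH1, which is 0.0305%, 0.0273% and 0.0250% of the TPM total.

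The total was carried by few genes. H1-10 held 50.2% of this TPM in siControl, 43.3% in sip53 and 42.6% in siBACH1, and together with H2BC12 it held 70.6%, 68.1% and 67.6%. The summed log2 ratio to siControl was -0.16 in sip53 and -0.28 in siBACH1. Without H1-10 the remaining 68 genes summed to 152 TPM in siControl, 155 TPM in sip53 and 144 TPM in siBACH1, log2 ratios of 0.026 and -0.079. The lower totals of the knockdown libraries therefore lay mostly in H1-10.

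**Figure D1:**
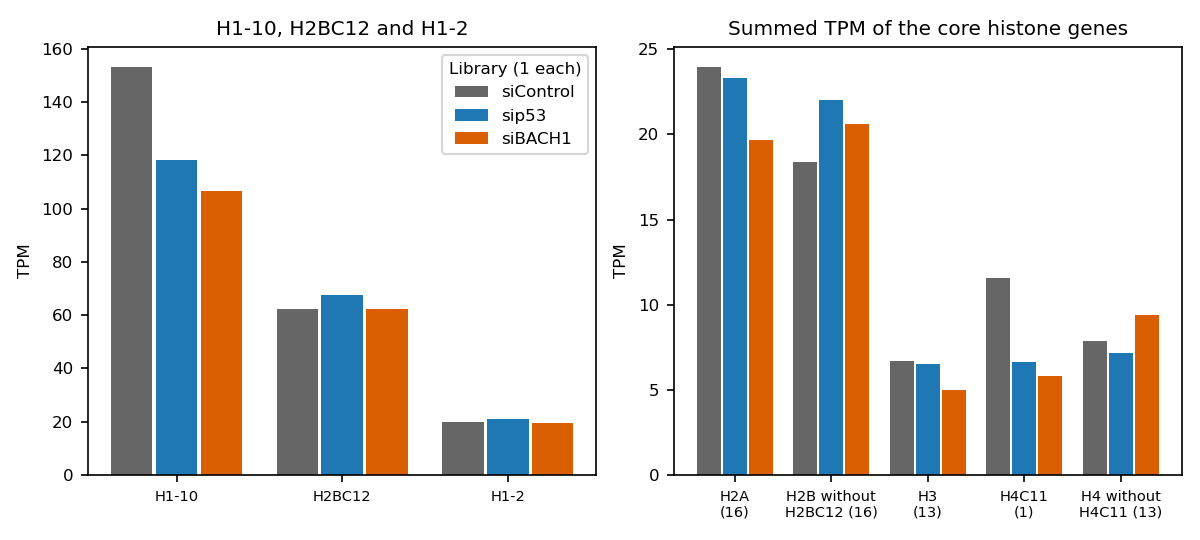
TPM of H1-10, H2BC12 and H1-2 (left) and summed TPM of the other core histone genes by family (right, number of genes in brackets), 1 bar per library, on linear axes that start at 0. H1-10 stands at 153, 118 and 107 TPM in siControl, sip53 and siBACH1, and H2BC12 at 62.3, 67.5 and 62.5 TPM.

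Among the linker histones, H1-10 (chr3:129314771-129316286, an H1 made outside S phase) was at 153 TPM in siControl, 118 TPM in sip53 and 107 TPM in siBACH1. Both knockdown libraries were below the control, with differences in log2(TPM + 1) of -0.37 and -0.52, and neither reached 1.5-fold. After rescaling each library to a median ratio of 1 over genes these were -0.30 and -0.43.

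The H1 genes within the chromosome 6 clusters were represented mainly by H1-2, a replication-dependent linker histone. H1-2 (chr6:26055740-26056470) was at 20.1 TPM in siControl, 20.9 TPM in sip53 and 19.6 TPM in siBACH1, which is nearly level. H1-3 and H1-4 stayed under 1 TPM in every library. Another 5 H1 genes were listed at 0 throughout. H1-1, H1-5 and the germ-line gene H1-6 lie on chromosome 6, but H1-7 lies on chromosome 12 and H1-8 on chromosome 3.

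GC content moved with level differences over the table, and its part in the H1-10 value was not tested. Among genes of at least 5 TPM, those in the highest of 10 equal bins of transcript GC (61.1% to 73.9%) had a median log2 difference from siControl of -0.24 in sip53 and -0.20 in siBACH1. The lowest bin had medians of 0.05 and -0.03. H1-10 has 68.6% GC.

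H2B was the most abundant core family, at 80.7 TPM in siControl, 89.5 TPM in sip53 and 83.1 TPM in siBACH1, and most of it came from H2BC12. H2BC12 (chr6:27138293-27146858) encodes a canonical H2B and was at 62.3 TPM in siControl, 67.5 TPM in sip53 and 62.5 TPM in siBACH1. Of its 31-base sequences, 86.3% occur in another gene as well, so its value depends on how pseudoalignment divided reads. H2BS1 alone holds 74.4% of all 31-base sequences of H2BC12 and was at 2.05 TPM in siControl, 2.17 TPM in sip53 and 2.04 TPM in siBACH1. Summed, the pair was at 64.4 TPM, 69.7 TPM and 64.5 TPM in the same order, and like H2BC12 alone it was highest in sip53.

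The other 16 H2B genes summed to 18.4 TPM in siControl, 22.0 TPM in sip53 and 20.6 TPM in siBACH1. H2BC5 was at 6.64 TPM in siControl, 7.25 TPM in sip53 and 6.69 TPM in siBACH1. H2BC4 was at 3.48 TPM, 4.37 TPM and 3.23 TPM in the same order, highest in sip53. H2BC11 was at 1.05 TPM in siControl, 2.54 TPM in sip53 and 2.03 TPM in siBACH1, higher in both knockdown libraries and past 1.5-fold on the log2(TPM + 1) scale only in sip53 (0.79, against 0.56 in siBACH1). H2BC9 and H2BC21 kept between 1.21 and 1.70 TPM in every library.

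H2A genes, whose proteins pair with H2B in the nucleosome, summed to 23.9 TPM in siControl, 23.3 TPM in sip53 and 19.7 TPM in siBACH1. H2AC6 was the highest H2A member, at 5.08 TPM in siControl, 6.99 TPM in sip53 and 5.40 TPM in siBACH1. H2AC18 (chr1:149842218-149842750) was at 4.64 TPM in siControl and 3.30 TPM in sip53 and was listed at 2.44e-06 TPM in siBACH1. Its neighbour H2AC19 (chr1:149851061-149851594) was at 4.13 TPM in siControl, 3.61 TPM in sip53 and 4.13 TPM in siBACH1. All 31-base sequences of H2AC18 occur in H2AC19, and 97.2% of those of H2AC19 occur in another gene. The value of either copy is therefore uncertain. Their sum, taken after the single values were seen, was 8.78 TPM in siControl, 6.91 TPM in sip53 and 4.13 TPM in siBACH1. With 1 TPM added to each sum, its log2 ratios to siControl were -0.31 in sip53 and -0.93 in siBACH1. Without that addition the plain ratios, not in log2, were 0.787 in sip53 and 0.470 in siBACH1.

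**Figure D2:**
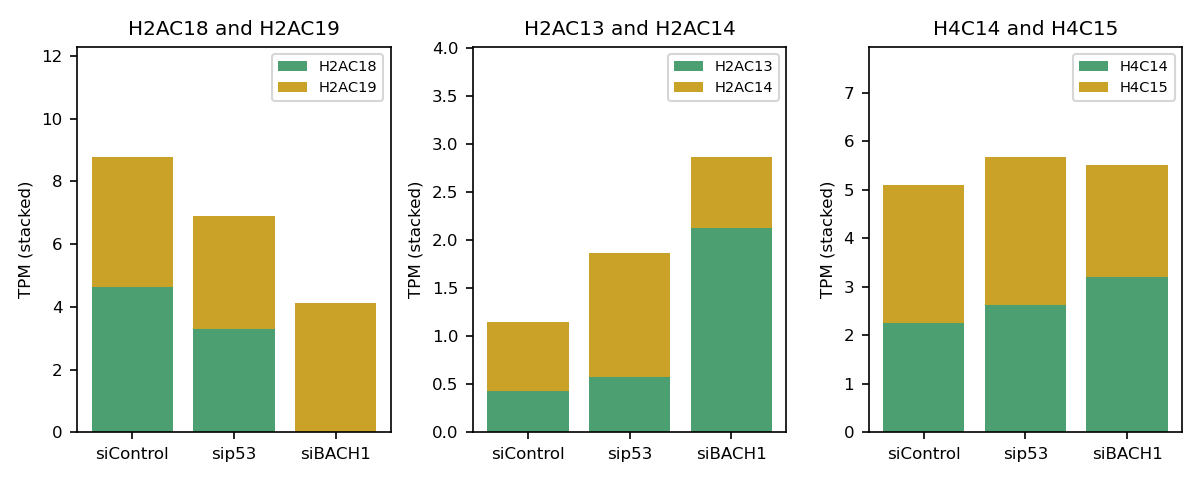
Stacked TPM of 3 pairs of near-identical histone genes in the 3 libraries, on linear axes that start at 0, with the height of a bar giving the sum of the pair. H2AC18 (lower part, left) is at 4.64, 3.30 and about 0 TPM, while H2AC19 stays between 3.61 and 4.13 TPM.

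H2AC13 and H2AC14 form another such pair, with 63.8% and 86.0% of their 31-base sequences found elsewhere. H2AC13 was at 0.430 TPM in siControl, 0.574 TPM in sip53 and 2.12 TPM in siBACH1. H2AC14 was at 0.714 TPM in siControl, 1.29 TPM in sip53 and 0.742 TPM in siBACH1. H2AC13 was highest in siBACH1 and H2AC14 in sip53, and their sum was lowest in siControl, at 1.14 TPM against 1.87 TPM in sip53 and 2.87 TPM in siBACH1. H2AC7 was at 1.26 TPM in siControl, 0.359 TPM in sip53 and 0.276 TPM in siBACH1, with 98.1% of its 31-base sequences shared with another gene. H2AC17 was at 2.12 TPM in siControl, 1.64 TPM in sip53 and 0.710 TPM in siBACH1, with 87.1% shared. Both were highest in siControl.

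H3, which carries many of the modifications read on chromatin, was the weakest core family, with 6.72 TPM in siControl, 6.49 TPM in sip53 and 4.97 TPM in siBACH1. H3C10 was the only H3 member to reach 1 TPM in all 3 libraries. It was at 2.02 TPM in siControl, 2.72 TPM in sip53 and 1.09 TPM in siBACH1, highest in sip53 and lowest in siBACH1. H3C3 was at 1.23 TPM in siControl, 0.217 TPM in sip53 and 0.328 TPM in siBACH1. H3C8 and H3C6 were lowest in siBACH1, at 0.827 TPM and 0.542 TPM, against 1.35 TPM and 1.03 TPM in siControl.

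H4, the partner of H3, summed to 19.5 TPM in siControl, 13.8 TPM in sip53 and 15.2 TPM in siBACH1. H4C11 (chr6:27824092-27824480), whose stem-loop is printed above, was at 11.6 TPM in siControl, 6.64 TPM in sip53 and 5.83 TPM in siBACH1. It was the only member of at least 5 TPM past 1.5-fold against siControl, at -0.72 in sip53 and -0.88 in siBACH1 on the log2(TPM + 1) scale. Of its 31-base sequences 82.2% occur in another gene, mainly H4C12, which was listed at 0 in every library. Its transcript has 62.2% GC, within the highest GC bin described above. H2BC12, at 61.2%, lies near the lower edge of the same bin, with differences in log2(TPM + 1) of 0.11 in sip53 and 0.0036 in siBACH1. The part of GC content in the H4C11 and H2BC12 values was not tested. The other 13 H4 genes summed to 7.87 TPM in siControl, 7.15 TPM in sip53 and 9.42 TPM in siBACH1, so the lower H4 sum in the knockdown libraries lay mostly in H4C11.

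H4C14 and H4C15 share all their 31-base sequences. H4C14 was at 2.26 TPM in siControl, 2.63 TPM in sip53 and 3.21 TPM in siBACH1, and H4C15 at 2.84, 3.05 and 2.30 TPM in the same order. Their sum was nearly level, at 5.09 TPM in siControl, 5.68 TPM in sip53 and 5.51 TPM in siBACH1.

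**Figure D3:**
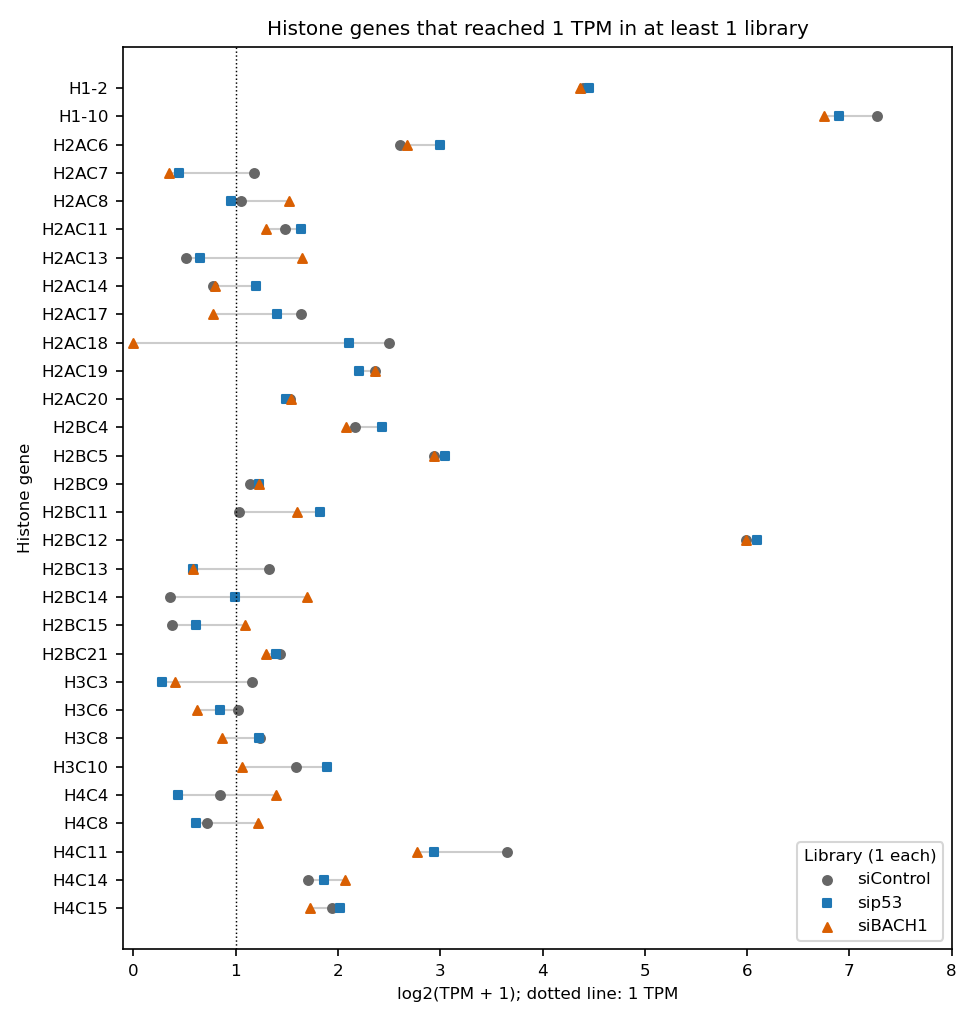
Level of the 30 histone genes that reached 1 TPM in at least 1 library, as log2(TPM + 1), with 1 point per library and a dotted line at 1 TPM. H1-10 lies above 100 TPM in all 3 libraries, and 24 of the 30 never reach 5 TPM.

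By position, the 55 members on chromosome 6 summed to 134 TPM in siControl, 138 TPM in sip53 and 130 TPM in siBACH1. On chromosome 1, the 11 members (chr1:149782689-149887965) summed to 17.9 TPM in siControl, 16.4 TPM in sip53 and 13.5 TPM in siBACH1. On chromosome 6, 34 members at chr6:25726063-26285534 summed to 47.7 TPM in siControl, 49.1 TPM in sip53 and 47.2 TPM in siBACH1. Another 5 members at chr6:27132316-27147562, among them H2BC12, summed to 65.6 TPM, 72.6 TPM and 66.5 TPM in the same order. The 16 members at chr6:27807479-27893891, among them H4C11, summed to 20.6 TPM, 16.5 TPM and 16.5 TPM. The last group and that on chromosome 1 were highest in siControl.

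Members were then counted at 1.5-fold on log2(TPM + 1), among those of at least 1 TPM in 1 or both libraries compared. A member that passed this filter only through the library where it was high had to differ, so the counts do not stand for all 69. Both knockdowns were compared with the same control library, so a value that is high or low there enters both comparisons.

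In sip53 against siControl, 25 members were measured, of which 1 was higher (H2BC11, 0.79) and 4 were lower (H3C3 -0.88, H2BC13 -0.75, H2AC7 -0.74 and H4C11 -0.72). Over all genes measured, 1.54% were higher and 2.88% lower, together 4.42%. Of the 6 members of at least 5 TPM, H4C11 was the only one past 1.5-fold, against 2.32% of all genes in that range. Of the 5 members past 1.5-fold, 4 lay between 1 and 5 TPM, a range that held 19 of the 25 and in which 13.6% of all genes passed. The median member difference was -0.0020, against -0.07 over all genes measured. After rescaling to a median ratio of 1 the split was 2 higher and 4 lower, with no share over all genes computed.

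In siBACH1 against siControl, 29 members were measured, of which 3 were higher (H2BC14 1.34, H2AC13 1.13 and H2BC15 0.72) and 6 lower. The lower ones were H2AC18 (-2.50), H4C11 (-0.88), H2AC17 (-0.87), H2AC7 (-0.83), H3C3 (-0.75) and H2BC13 (-0.75). Over all genes measured, 1.78% were higher and 3.69% lower, together 5.47%. Of the 6 members of at least 5 TPM, H4C11 was again the only one, against 3.12% of all genes in that range. Of these 9 members, 8 lay between 1 and 5 TPM, a range that held 23 of the 29 and in which 15.7% of all genes passed. The median member difference was -0.035, against -0.08 over all genes measured. After rescaling to a median ratio of 1 the split was 6 higher and 6 lower, so the balance of directions depended on the scaling. The share over all genes was not computed on that scale.

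In siBACH1 against sip53, 26 members were measured, of which 4 were higher (H2AC13 0.99, H4C4 0.95, H2BC14 0.71 and H4C8 0.61) and 3 lower (H2AC18 -2.10, H3C10 -0.83 and H2AC17 -0.63). Over all genes measured, 2.84% were higher and 3.18% lower, together 6.02%. All 7 members past 1.5-fold lay between 1 and 5 TPM, where 16.4% of all genes passed. None of the 6 of at least 5 TPM was past it, against 3.62% of all genes in that range.

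Among the 16 members of at least 1 TPM in all 3 libraries, fewer were past 1.5-fold. This filter takes out members that fell under 1 TPM in any library, and the share over all genes fell as well. In sip53, H2BC11 was higher and H4C11 lower, against 2.78% of all genes with at least 1 TPM in all 3 libraries in either direction. In siBACH1, H4C11 alone was lower and no member was higher, against 3.66%. In siBACH1 against sip53, H3C10 alone was lower, against 4.21%. The median differences of these 16 were 0.097, -0.019 and -0.13 in the same order.

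**Figure D4:**
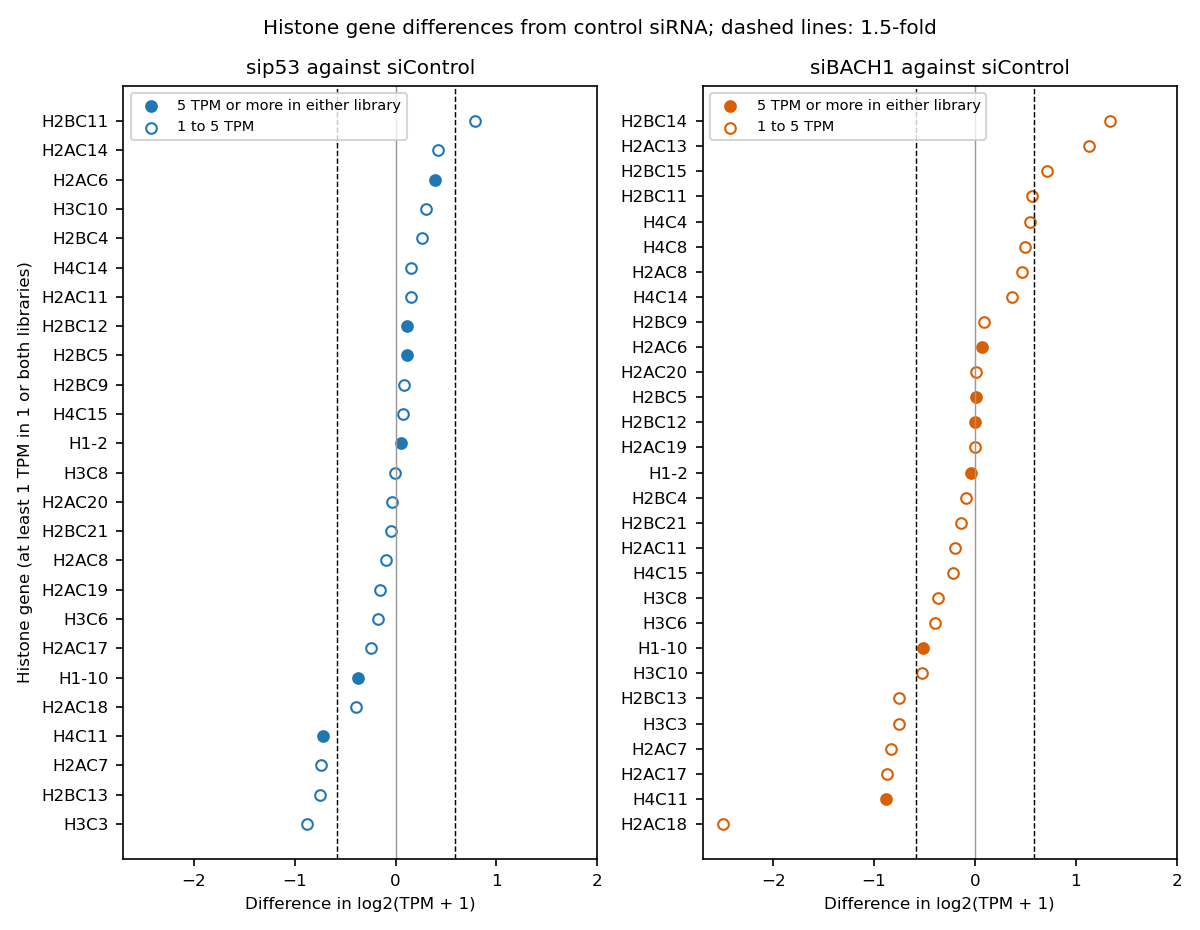
Difference from siControl in log2(TPM + 1) for each measured histone gene, with sip53 at left and siBACH1 at right; dashed lines mark 1.5-fold, filled points have at least 5 TPM and open points 1 to 5 TPM. Among filled points only H4C11 lies past a line, at -0.72 and -0.88.

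The lowest values were coarse. In 5 H3 genes and 4 H2B genes of equal coding length, which share less than 50% of their 31-base sequences, values under 3 TPM could be written as whole multiples of a small step (within 0.02 of a step). The step was read from the same few values, so this is a description and no check. For H3 genes (411 bases) the step was 0.247 TPM in siControl, 0.217 TPM in sip53 and 0.328 TPM in siBACH1. For H2B genes (381 bases) it was 0.279, 0.246 and 0.375 TPM in the same order. H3C3 stood at 5 steps in siControl and at 1 step in each knockdown library. H2BC14 stood at 1 step in siControl, 4 in sip53 and 6 in siBACH1. Whether a step is the value of 1 read was not tested, and TPM keeps no depth, so no counting interval is given.

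The annotated 3′ ends went with how often a member reached 1 TPM. All 69 members matched a GENCODE 29 gene. A poly(A) signal (AATAAA or ATTAAA, transcript strand) lay in the last 60 bases of a transcript of 24 members. Over all annotated genes the share was 45.6%. These are not like measures, because 32 members were annotated as coding sequence only and their ends could not be read. Of these 24 members, 18 reached 1 TPM in some library and 13 in all 3. Without H1-10 it was 17 of 23 and 12 of 23, with medians of 1.35 TPM in siControl, 1.62 TPM in sip53 and 1.32 TPM in siBACH1. In H4C11 the AATAAA adjoins the stem-loop itself, in the sequence printed above.

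Of the 7 members with a stem-loop and no such signal, 3 reached 1 TPM in some library and none in all 3, and their medians were 0.438 TPM in siControl, 0.434 TPM in sip53 and 0.483 TPM in siBACH1. Another 32 members were annotated as coding sequence only, so their ends could not be read. Of these, 9 reached 1 TPM in some library and 3 in all 3, namely H2BC12, H1-2 and H2AC20, with medians of 0.247 TPM, 0.0537 TPM and 0.296 TPM in the same order. The remaining 6 had neither motif and stayed under 1 TPM. The labels name a mRNA library kit and do not say how mRNA was selected. None of 18 listed RNAs without a poly(A) tail matched a symbol of the table, so this could not be checked on other transcripts.

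**Figure D5:**
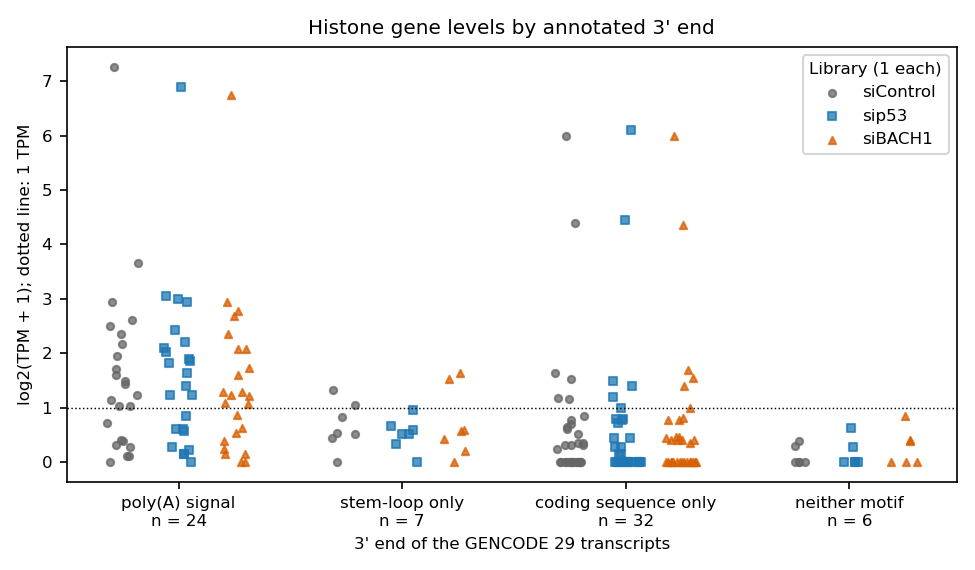
Level of each of the 69 members in siControl, sip53 and siBACH1, as log2(TPM + 1), by the annotated end of its transcripts, 1 point per gene and library, with a dotted line at 1 TPM. Of members with a poly(A) signal near an annotated end 18 of 24 pass the line in some library, and H2BC12 and H1-2 stand highest among those annotated as coding sequence only.

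Promoters of 64 of the 69 members were found in RefSeq (GRCh38.p14) and searched on both strands from 250 bases before to 50 after the start. The promoter of H2BC12 is shown for the 150 bases before the start because it holds the octamer typical of the H2B family, with CCAAT, ATTTGCAT and TATAAA in capitals on either strand (chr6:27146859-27147008, minus strand).
H2BC12: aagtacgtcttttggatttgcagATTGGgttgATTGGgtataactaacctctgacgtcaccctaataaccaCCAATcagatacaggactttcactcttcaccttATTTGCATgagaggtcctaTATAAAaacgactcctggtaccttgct
The octamer ATTTGCAT, known as a binding motif of the POU2F1 protein, was in 26 of 64 member promoters, against 1.80% of all 27305 promoters. It was in 14 of 17 H2B and 11 of 15 H2A promoters and in no H1 or H4 promoter. The searched stretches of some neighbouring genes, such as H2AC13 and H2BC13, overlap, so the same site can count for both genes. CCAAT, the motif of the factor NF-Y, was in 84.4% of member promoters against 35.7% of all. All 15 H2A, 17 H2B and 11 H3 promoters held it, against 3 of 12 H4 promoters. TATAAA was in 65.6% of member promoters, 42 of 64, against 3264 of all 27305. AAACACA, known from H1 promoters, was in 7 of 9 H1 promoters and in 15.6% of all member promoters, against 5.76% of all.

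TTTNNCGC, the motif of E2F factors that act at the start of S phase, was in 20 of 64 member promoters against 6.90% of all. TGACNNNGC, a core shared by antioxidant response elements to which BACH1 binds, was in 8 of 64 member promoters, 12.5% against 13.6% of all. The 30 members that reached 1 TPM and the 34 that did not held the octamer 13 times each and TATAAA 21 times each. CCAAT was in 24 of the 30 and in 30 of the 34. TTTNNCGC was in 11 and 9, AAACACA in 2 and 8, and TGACNNNGC in 6 and 2 in the same order. These splits were not tested. A match describes letters only and does not show that a factor binds.

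Genes of the variant list, which encode replacement histones or lie outside the main clusters, held more TPM in sum than the members. The 12 variant genes above 0 summed to 2546 TPM in siControl, 2364 TPM in sip53 and 2336 TPM in siBACH1, or 8.35, 8.66 and 9.33 times the member sum. Of the member sum, 50.2%, 43.3% and 42.6% came from the highest member, which lies outside the clusters. The mRNAs of clustered genes usually end without a poly(A) tail, and how mRNA was selected is not stated. These ratios therefore describe listed TPM, and whether they hold for RNA in the cells was not tested. Of the 11 variant genes measured, none was past 1.5-fold in either knockdown, with medians of -0.13 in sip53 and -0.11 in siBACH1. Over all genes measured 4.42% and 5.47% were past it. H2AZ1, a variant found at promoters, was at 527 TPM in siControl, 472 TPM in sip53 and 478 TPM in siBACH1. H2AX, which is phosphorylated at DNA breaks, was at 117 TPM, 89.1 TPM and 91.2 TPM, lower in both knockdown libraries (-0.39 and -0.36). H3-3A, which encodes H3.3, was at 466 TPM, 483 TPM and 413 TPM, and H3-3B, which encodes the same protein, at 621 TPM, 578 TPM and 575 TPM. H4-16, an H4 gene outside the main clusters, was lower in both knockdown libraries, at -0.55 in sip53 and -0.30 in siBACH1 on the log2 scale.

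Genes for histone mRNA synthesis, 3′ processing and decay did not stand out from all genes. None of the 20 genes was past 1.5-fold in either knockdown among those measured (19 in sip53, 20 in siBACH1), with medians of -0.08 in sip53 and -0.06 in siBACH1. Over all genes measured 4.42% and 5.47% were, with medians of -0.07 and -0.08. SLBP, which binds the stem-loop, was at 99.9 TPM in siControl, 94.4 TPM in sip53 and 83.7 TPM in siBACH1. NPAT, which activates histone transcription at the clusters, was at 9.55 TPM, 9.49 TPM and 10.7 TPM in the same order. CSTF2, a cleavage factor, had the largest difference in sip53 at -0.39, and POU2F1, which binds the octamer, the largest in siBACH1 at 0.40.

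Of 20 histone chaperones and import factors, 1 was past 1.5-fold in sip53 and none in siBACH1, where 4.42% and 5.47% of all genes were, so the list did not stand out. ASF1B, which hands H3 and H4 to the replication machinery, was at 48.5 TPM in siControl against 31.9 TPM in sip53, a difference of -0.59, just past 1.5-fold. Medians were -0.16 in sip53 and -0.08 in siBACH1. In siBACH1 against sip53 SPTY2D1, a chaperone of H3 and H4, was lower, at -0.68 on the log2 scale.

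Of 20 S phase genes, 6 were at least 1.5-fold lower in sip53 and none higher, against 2.88% lower and 1.54% higher over all genes. Their median was -0.46, where the 25 measured histone members had a median of -0.0020. Every S phase gene was above 5 TPM, while 19 of these 25 members lay between 1 and 5 TPM. There log2(TPM + 1) understates differences, so the medians are not on like terms. In siBACH1 no S phase gene was past 1.5-fold and their median was -0.07. PCNA, the sliding clamp of DNA replication, was at 369 TPM in siControl, 281 TPM in sip53 and 359 TPM in siBACH1. GINS2, which is part of the DNA-unwinding helicase at replication forks, was at 29.6 TPM in siControl, 16.3 TPM in sip53 and 21.6 TPM in siBACH1. Both were lowest in sip53. The summed histone TPM without H1-10 was 152 TPM in siControl and 155 TPM in sip53, but without H2BC12 and H1-2 as well it was 69.4 TPM and 66.3 TPM, so its direction depended on which genes were summed. With 1 library a group, whether the S phase genes and the histone members differ beyond the spread between libraries cannot be tested.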

How the data were processed

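The authors deposited a table of TPM for 28890 gene symbols with 1 column per library. Per the submitters' processing notes, bcl2fastq 2.20 and kallisto 0.44.0 were used, and GRCh38, GRCm38 and mm10 are named without roles. Not given in the sources used here are the transcript annotation and how transcripts became gene values. Listed TPM summed to 978371, 978656 and 979148 in siControl, sip53 and siBACH1. TPM keeps no read depth.

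Values were compared as log2(TPM + 1), which understates differences of low genes, among genes of at least 1 TPM in 1 or both libraries, at 1.5-fold. Sums were compared as log2 ratios with 1 TPM added to each sum. Python 3.11.15 with pandas 2.3.3, numpy 2.4.6 and matplotlib 3.10.9 was used. The code of the comparison was checked on siControl values multiplied by fixed factors without noise. That check covered the code only and says nothing about calls near 1.5-fold or at low TPM. Any member of at least 1 TPM in some library could be named, as could up to 4 genes with the largest difference from each other list. Members and lists were chosen with earlier results of these data known. Positions of genes and promoters are RefSeq's (GRCh38.p14), mRNA ends and shared 31-base sequences GENCODE 29's. The positions of the RefSeq table may not be those of the annotation the authors used. Clusters were members under 500 kb apart. Alternatives were other pseudocounts, minima and thresholds, rescaling, and leaving out mitochondrial and ribosomal protein genes. Some genes, 1 of the 70 members among them, are not reported here.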

Additional observations from a re-analysis of the deposited data

How the results depend on the processing

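Counts of members past 1.5-fold moved with most settings. For the other pseudocounts, no minimum and both scalings, the share over all genes was not computed. Those counts therefore show nothing particular to the members. With a pseudocount of 0.1 TPM, 2 members were higher and 4 lower in sip53, 7 and 9 in siBACH1, and 6 and 5 in siBACH1 against sip53. With a pseudocount of 5 TPM there were 0 higher and 0 lower in sip53, 0 and 2 in siBACH1, and 0 and 1 in siBACH1 against sip53. The 2 still lower in siBACH1 were H2AC18 and H4C11, and H4C11 in sip53 came to -0.51. A minimum of 5 TPM left 0 higher and 1 lower in sip53, 0 and 1 in siBACH1, and 0 and 0 in siBACH1 against sip53. In that range 2.32%, 3.12% and 3.62% of all genes passed in either direction. With no minimum, 3 were higher in sip53, and the median of siBACH1 against sip53 was -0.0059. At 2-fold there were 0 higher and 0 lower in sip53, 2 and 1 in siBACH1, and 0 and 1 in siBACH1 against sip53. Over all genes measured it was 49 and 71 of 12412, 76 and 102 of 12437, and 97 and 94 of 12390 in the same order.

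Scaling moved the counts of higher members. Rescaled to a median ratio of 1, 2 were higher in sip53 and 6 in siBACH1. Without 13 mitochondrial and 88 ribosomal protein genes, 3 were higher in sip53 and 9 in siBACH1, where the medians became 0.12 and 0.069. H4C11 stayed past 1.5-fold under both scalings and the pseudocount of 0.1 TPM, in both knockdowns.

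Without H1-10, the highest of the 69 members, the summed log2 ratios were 0.026 in sip53 and -0.079 in siBACH1. The restriction to members of at least 1 TPM in all 3 libraries was added after seeing the data. It left 1 higher and 1 lower in sip53, 0 and 1 in siBACH1, and 0 and 1 in siBACH1 against sip53. The number of members reaching the minimum was 31 in sip53 at 0.5 TPM, and 6 in each library at 5 TPM. In these cases the cause was not tested, beyond fewer genes being counted under stricter minima.

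No paired analysis was possible because each group held 1 library. Leaving out a replicate was not possible for the same reason. Depth is unknown, so differences of members at 1 to 5 TPM cannot be set against counting error.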
